A study of Mus musculus with 3 samples.

Results

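Closely spaced runs are stretches of the genome in which 2 or more open chromatin peaks follow one another with only a short break. Peaks of the uterine list were chosen by their length (below 900 bp), by the distance to another peak on the same chromosome (a gap of 500 bp or less between the end of the first and the start of the next) and by their local background (21 or less). The background was computed from the deposited values as (pileup + 1) / fold enrichment − 1. These limits left 1712 member peaks, 13.8% of the 12413 in the list, in 843 runs on 20 chromosomes. The neighbour that made a peak a member could be any row of the list, so 24 runs held 1 member only, next to a longer peak in 23 cases and to a peak of high background in 1. A further 7 chains of peaks held no member at all.

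The peaks came from FAIRE-seq, which recovers DNA that formaldehyde did not hold to protein, applied to the whole uterus of untreated wild-type C57BL/6J females. The females were 6 to 10 weeks old, had been mated with fertile males and were on gestation day 4, with blastocysts found on flushing the uterus. The 3 samples, 1 per uterus, form 1 group, and no other group was profiled here. From each uterus, 100 mg of frozen tissue was fixed for 9 min in 1% formaldehyde and broken to fragments averaging 300 bp. The list holds 1 value per peak and has no column for a single uterus. The spread between mice and the library depth are therefore unknown, and no test between groups of peaks was made. The pileup, the fold enrichment and the −log10 q are the authors' values for each peak and are used only to describe and rank peaks within the list. Because whole uterus mixes epithelium, glands, stroma, muscle, vessels and immune cells, fewer open cells of a type and less opening per cell cannot be told apart, nor can it be told whether the peaks of a run were open in the same cells. Of 20 marker genes of uterine cell types, 6 had a peak within 1 kb of a gene end, and 0 of those 6 had a member peak. Over all 9576 protein-coding genes with such a peak 8.45% had a member, so a count of 0 in 6 genes is not set apart from the background.

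A promoter is the stretch around a gene's start where transcription factors and RNA polymerase assemble. Active promoters in mammals usually show a nucleosome-depleted region at the start, flanked by positioned nucleosomes, and many lie in CpG islands, which are rich in G, C and the CG pair. In open chromatin data such an island may appear as a single broad peak or as several peaks parted by short stretches of lower signal. Genes for transcription factors and signalling regulators often have long islands, and genes transcribed in opposite directions can share a promoter.

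The promoters below show where such a break falls in the letters. Each is a 300-base RefSeq window of build GRCm38.p6 (250 bases before the gene start and 50 after it), printed 5′ to 3′ on the gene's strand. Capitals mark bases in the gap between neighbouring peaks of the run, and lower case marks bases covered by a peak. The first 7 come from the runs with the most members and the largest length. Dusp1, Atf3, Bmi1 and Ptp4a2 were picked after their values were seen, because their windows hold a large part or all of a gap.
Tshz3 (chr7:36697868-36698167, plus strand): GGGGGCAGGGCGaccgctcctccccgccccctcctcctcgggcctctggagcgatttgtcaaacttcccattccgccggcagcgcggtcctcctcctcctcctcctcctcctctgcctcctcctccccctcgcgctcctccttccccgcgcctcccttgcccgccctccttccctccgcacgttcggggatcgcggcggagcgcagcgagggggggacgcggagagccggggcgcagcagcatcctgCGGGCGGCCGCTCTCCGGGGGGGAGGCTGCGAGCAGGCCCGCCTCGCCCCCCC
Gm36722 (chr7:36698173-36698472, minus strand): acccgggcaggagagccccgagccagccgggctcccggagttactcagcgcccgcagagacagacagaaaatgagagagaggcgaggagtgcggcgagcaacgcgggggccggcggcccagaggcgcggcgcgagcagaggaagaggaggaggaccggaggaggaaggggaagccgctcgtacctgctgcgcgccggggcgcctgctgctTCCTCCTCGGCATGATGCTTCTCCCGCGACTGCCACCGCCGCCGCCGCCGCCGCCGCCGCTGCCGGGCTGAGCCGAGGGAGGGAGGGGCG
Trio (chr15:28025799-28026098, minus strand): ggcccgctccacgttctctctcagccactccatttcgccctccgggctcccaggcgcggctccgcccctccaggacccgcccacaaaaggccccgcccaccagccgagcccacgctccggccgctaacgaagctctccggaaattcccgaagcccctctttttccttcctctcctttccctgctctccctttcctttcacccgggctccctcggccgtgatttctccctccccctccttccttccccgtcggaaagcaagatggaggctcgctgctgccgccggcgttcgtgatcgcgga
Sox12 (chr2:152397997-152398296, minus strand): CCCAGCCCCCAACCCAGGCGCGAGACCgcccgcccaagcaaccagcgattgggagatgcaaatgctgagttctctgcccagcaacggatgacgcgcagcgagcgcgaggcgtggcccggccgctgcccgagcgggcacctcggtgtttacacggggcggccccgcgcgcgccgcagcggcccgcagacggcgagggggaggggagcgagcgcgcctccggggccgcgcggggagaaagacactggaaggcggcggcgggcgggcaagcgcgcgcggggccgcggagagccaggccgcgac
Phf13 (chr4:151996130-151996429, minus strand): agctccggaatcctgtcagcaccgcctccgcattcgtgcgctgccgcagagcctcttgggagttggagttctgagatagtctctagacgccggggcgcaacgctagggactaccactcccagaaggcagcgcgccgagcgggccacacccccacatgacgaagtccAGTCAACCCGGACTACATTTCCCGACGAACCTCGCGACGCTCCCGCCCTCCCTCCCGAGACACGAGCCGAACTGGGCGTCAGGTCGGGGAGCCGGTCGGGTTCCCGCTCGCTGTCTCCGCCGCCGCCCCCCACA
Ccdc92 (chr5:124862172-124862471, minus strand): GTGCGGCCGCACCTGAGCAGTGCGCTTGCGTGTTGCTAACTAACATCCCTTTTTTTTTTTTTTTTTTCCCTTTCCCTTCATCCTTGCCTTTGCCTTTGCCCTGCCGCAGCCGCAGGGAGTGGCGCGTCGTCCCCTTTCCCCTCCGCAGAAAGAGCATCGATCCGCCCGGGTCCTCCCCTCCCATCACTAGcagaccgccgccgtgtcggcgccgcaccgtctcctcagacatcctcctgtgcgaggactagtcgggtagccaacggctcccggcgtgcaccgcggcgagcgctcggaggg
Zfp664 (chr5:124862455-124862754, plus strand): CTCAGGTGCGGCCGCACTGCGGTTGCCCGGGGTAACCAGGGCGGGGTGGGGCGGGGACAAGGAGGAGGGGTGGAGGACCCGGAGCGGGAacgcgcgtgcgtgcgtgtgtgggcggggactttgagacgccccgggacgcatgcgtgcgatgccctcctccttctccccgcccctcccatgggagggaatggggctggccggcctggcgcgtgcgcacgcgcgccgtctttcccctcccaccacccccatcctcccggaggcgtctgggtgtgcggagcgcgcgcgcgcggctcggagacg
Dusp1 (chr17:26508423-26508722, minus strand): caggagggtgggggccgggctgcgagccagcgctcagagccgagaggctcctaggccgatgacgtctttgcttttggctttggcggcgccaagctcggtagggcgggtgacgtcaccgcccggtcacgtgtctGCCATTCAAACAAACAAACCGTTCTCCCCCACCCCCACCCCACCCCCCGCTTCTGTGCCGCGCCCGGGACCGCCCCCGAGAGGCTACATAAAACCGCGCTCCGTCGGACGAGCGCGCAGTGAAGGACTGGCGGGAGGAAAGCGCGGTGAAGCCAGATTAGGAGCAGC
Atf3 (chr1:191183284-191183583, minus strand): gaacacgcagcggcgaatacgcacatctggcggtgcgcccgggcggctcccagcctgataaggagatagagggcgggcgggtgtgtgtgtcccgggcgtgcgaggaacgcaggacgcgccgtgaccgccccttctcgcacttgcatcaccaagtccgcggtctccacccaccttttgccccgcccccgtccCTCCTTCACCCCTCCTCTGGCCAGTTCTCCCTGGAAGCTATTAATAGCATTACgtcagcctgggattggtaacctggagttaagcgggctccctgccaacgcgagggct
Bmi1 (chr2:18676768-18677067, plus strand): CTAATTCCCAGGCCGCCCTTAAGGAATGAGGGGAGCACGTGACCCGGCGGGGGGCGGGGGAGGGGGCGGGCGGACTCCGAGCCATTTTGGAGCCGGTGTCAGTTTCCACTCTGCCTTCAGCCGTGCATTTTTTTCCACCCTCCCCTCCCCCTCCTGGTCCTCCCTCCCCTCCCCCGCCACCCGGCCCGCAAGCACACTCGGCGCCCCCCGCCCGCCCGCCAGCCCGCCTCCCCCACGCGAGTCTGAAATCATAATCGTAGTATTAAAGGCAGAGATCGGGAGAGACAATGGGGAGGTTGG
Ptp4a2 (chr4:129820229-129820528, plus strand): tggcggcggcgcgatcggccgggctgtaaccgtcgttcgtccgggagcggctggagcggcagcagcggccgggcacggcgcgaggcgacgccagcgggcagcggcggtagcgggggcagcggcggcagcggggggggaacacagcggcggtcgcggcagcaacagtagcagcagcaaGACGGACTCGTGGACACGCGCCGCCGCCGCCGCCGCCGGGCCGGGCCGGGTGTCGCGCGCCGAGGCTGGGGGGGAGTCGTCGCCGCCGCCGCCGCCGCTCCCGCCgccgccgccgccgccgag

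In the Bmi1 window all 300 bases lay in the gap, and in the Trio window all 300 lay in a peak. The Dusp1 window had 167 gap bases, and they included the gene start. The gaps of Atf3 (53 bases) and Ptp4a2 (105 bases) were held whole, with peak bases on either side. The Ptp4a2 gap contained stretches of repeated CCG, as did the gap part of the Gm36722 window. G and C made up 63.3% of the Ccdc92 window and 81.7% of the Ptp4a2 window, with 30 and 60 CG pairs.

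Most runs were pairs. There were 770 runs with 2 members, 48 with 3 and 1 with 4. The run length, from the first start to the last end, had a median of 980 bp (interquartile range 825 to 1178, lowest 528, highest 2361). Peaks covered a median of 81.8% of a run, and the lowest cover was 49.4%. The 894 gaps inside the runs had a median of 169.5 bp (interquartile range 108 to 261). Gaps of 50 to 99, 100 to 149 and 150 to 199 bp were about equally common, with 185, 185 and 179 of them. Beyond that the numbers went down, to 108 gaps of 200 to 249 bp and 27 of 400 to 449 bp. None of the 12393 gaps in the whole list was shorter than 50 bp, and their median was 61762 bp. Over the whole list 901 gaps measured below 500 bp, compared with 177 from 500 bp to just under 1 kb and 68 from there to 1.5 kb. In the 769 runs made of 2 member peaks and nothing else, summits lay a median of 552 bp apart (interquartile range 460 to 695).

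**Figure D1:**
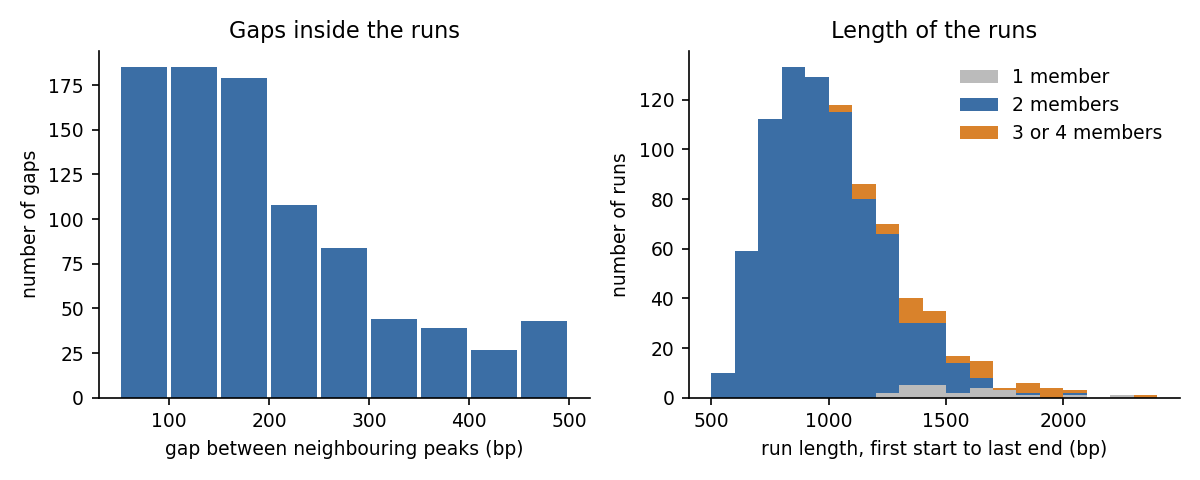
Left, number of gaps between neighbouring peaks of the 843 runs in 50 bp steps; right, run length from first start to last end in 100 bp steps, stacked by the number of member peaks. Gaps below 200 bp are the most common, the median run is 980 bp long, and runs of 3 or 4 members lie mostly above that.

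The limits on length and gap cut through values that continue on either side. The longest member measured 898 bp, and the shortest peak left out of a run for its length 902 bp. The largest gap inside the limit was 498 bp and the smallest past it 503 bp. The background limit fell in a wider step, with 20.9 as the highest of a member and 24.2 as the lowest above it.

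Member peaks were, by their medians, weaker and shorter than the list as a whole. The middle fold enrichment of the members was 4.75 (quartiles 3.97 and 6.14). The median was 5.80 over all peaks and 5.95 over 10146 single peaks, meaning peaks within the same length and background limits that had no neighbour. Median pileup was 51 in members and 54 in single peaks, while the median background was 9.91 and 8.25. Median length was 347 bp against 429 bp. The 526 peaks of 900 bp or more had a median length of 1015 bp, close to the 980 bp of a whole run, at a median fold of 7.03 and a median background of 11.9. Length and background entered the choice of members, and the fold follows from pileup and background, so these values describe the choice and were not tested.

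Within a run the peaks were often unequal. In the 769 pairs the stronger peak had a median fold of 6.06 (interquartile range 4.97 to 7.71) and the weaker a median of 4.12 (3.62 to 4.71). The ratio of the stronger to the weaker had a median of 1.39 and reached 4.74, and it was 2 or more in 128 pairs (16.6%). The stronger peak was also the longer in 538 pairs (70.0%), with median lengths of 408 and 306 bp. Across the 769 pairs, log2 fold of the left and right peaks had Pearson's r = -0.24 (Spearman's coefficient −0.19). This describes peaks of 1 list that share their libraries and much of their local background.

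Most runs lay at genes. Either end of a protein-coding gene was 1 kb or less from the centre of 1297 of 1712 members (75.8%, 95% Wilson interval 73.7 to 77.7), compared with 71.5% of single peaks and 78.7% of peaks of 900 bp or more. The interiors of protein-coding genes, away from their ends, held 314 members (18.3%, against 17.8% of single peaks). Ends of other genes held 74 (4.32%). Only 25 members (1.46%, interval 0.991 to 2.15) lay between genes, compared with 4.94% of single peaks and 2.28% of long ones. Peaks are not replicates, and the members of a run lie close together, so the intervals for members are likely too narrow. These shares were not tested against each other. Of the runs, 702 (83.3%) had a protein-coding gene end within 1 kb, and 114 (13.5%) had ends of 2 or more such genes. For runs the distance was taken from the edges of the run, so these shares are not comparable with those by peak centre. The share of peaks that were members ran from 11.3% on chromosome 15 (60 of 531) to 18.5% on chromosome 12 (91 of 491), with 16.1% on the X chromosome (41 of 254).

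Gene starts with their strand were matched for 17274 of 21523 protein-coding genes, giving 21045 starts. A start lay inside 552 runs (65.5%), 5409 single peaks (53.3%) and 349 peaks of 900 bp or more (66.3%). Runs were taken from first start to last end with their gaps and were longer than single peaks. The shares were not scaled for this. The arrangement was clearest in the 394 pairs that held exactly 1 start. The upstream peak is the one met first when reading in the direction of the gene, and the downstream peak lies further into it. The start lay in the upstream peak in 241 pairs (61.2%, 95% Wilson interval 56.3 to 65.9), in the downstream peak in 84 (21.3%) and in the gap in 69 (17.5%). The commonest form was therefore a peak over the start followed by a second peak inside the beginning of the gene. The shares count starts and were not scaled by the lengths of the peaks and gaps.

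In those 241 pairs the upstream summit was a median of 31 bp before the start (interquartile range −84 to 28) and the downstream summit 531 bp into the gene (426 to 666). For comparison, 4686 single peaks with 1 start had their summit a median of 20 bp past it (−37 to 87). The upstream peak was stronger in 187 of the 241 (77.6%), with a median fold of 5.89 against 4.14. Where the start lay in the downstream peak, the upstream summit was a median of 499 bp before it, and the upstream peak was stronger in 45 of 84 (53.6%). The median folds there were 5.32 upstream and 5.34 downstream, so neither side was regularly ahead. Where the gap held the start, the summits stood at medians of 250 bp before and 271 bp after it, with folds of 5.45 and 4.65, and the upstream peak was stronger in 44 of 69 (63.8%). Gaps that held the start had a median of 211 bp and were as short as 52 bp. Pooled over both positions, the peak that held the start was the stronger of its pair in 226 of 325 (69.5%). Starts in the upstream peak carried this share, since the upstream peak was stronger in 45 of 84 pairs with the start in the downstream peak. Counting every start in every pair, also where several starts fell in a run, 331 of 625 (53.0%) lay in the upstream peak, 184 (29.4%) in the downstream peak and 110 (17.6%) in the gap. Those 625 are not separate promoters, since they belong to 551 genes in 499 pairs.

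**Figure D2:**
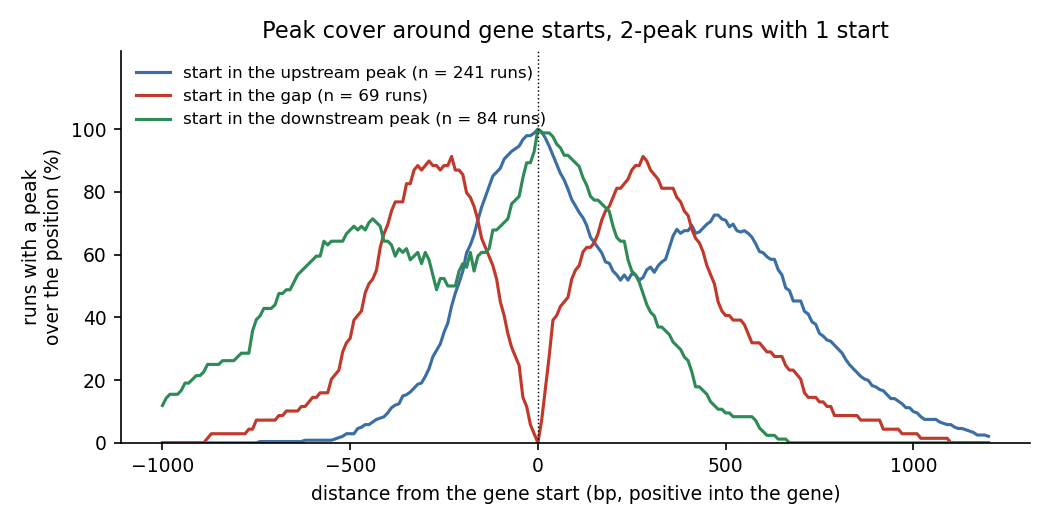
Percentage of pairs with a peak over each position (in steps of 10 bp) around the gene start, for the 394 pairs with exactly 1 start, drawn separately for starts in the upstream peak (241), in the gap (69) and in the downstream peak (84). Cover at the start itself is set by these classes; away from it the blue line has a second hill near 500 bp into the gene, the green line has one before the start, and the red line has a hill on either side.

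**Figure D3:**
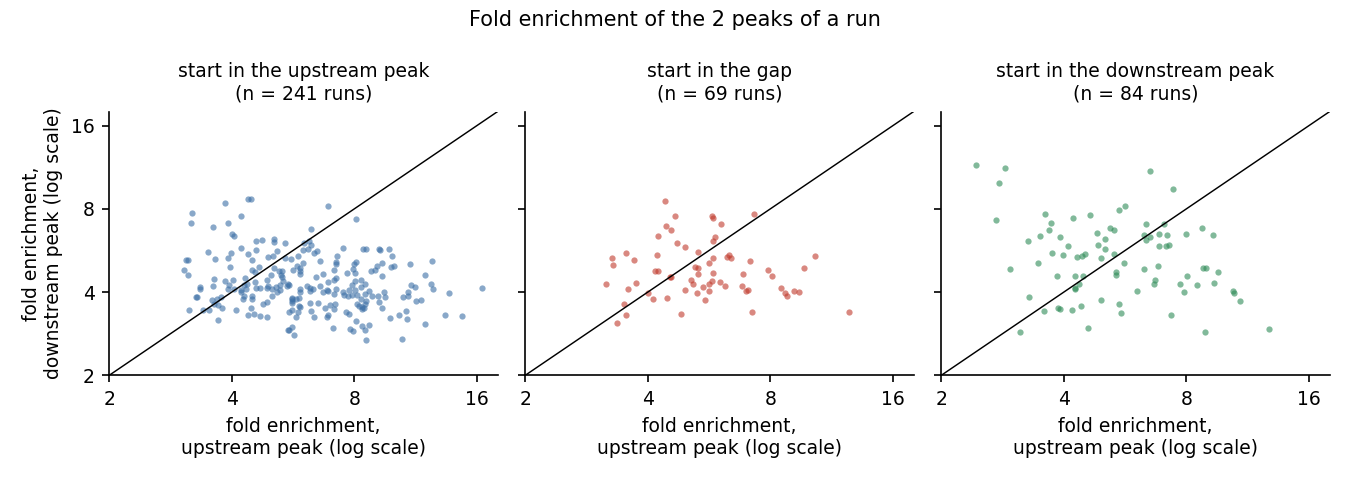
Fold enrichment of the upstream peak (x axis) and the downstream peak (y axis) of the same 394 pairs, both on log scales, 1 point a pair; the line marks equal fold. With the start in the upstream peak most points lie below the line (187 of 241), whereas with the start in the downstream peak they lie on both sides.

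The run with the most members lay at Tshz3, a zinc finger homeobox transcription factor, on chromosome 7 (36696464 to 36698541). Its 4 peaks had fold enrichments of 5.52, 4.82, 4.36 and 3.36 and pileups of 69, 59, 54 and 41, with gaps of 452, 254 and 148 bp. Both values went down along the direction of Tshz3, whose start fell in the last gap, 4 bp past the end of the peak before it. The start of the predicted gene Gm36722, on the other strand, lay in the same gap, 104 bp further along.

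Of the 48 runs with 3 members, the longest lay at an end of Adgrl2, an adhesion G protein-coupled receptor (chromosome 3, 148987750 to 148990110). It spanned 2361 bp with folds of 3.58, 4.83 and 4.04, and its gaps of 490 and 482 bp were close to the limit. At Mafa, a transcription factor known from pancreatic beta cells, folds were 3.34, 3.27 and 5.54 over 1992 bp. Trio, which encodes a guanine nucleotide exchange factor, had a peak over its start (4.05) and 2 further into the gene (4.08 and 5.90), so the strongest was the farthest from the start, 1286 bp in at its summit. Phf13, a chromatin reader, had its start in the gap between a peak of 4.26 upstream and one of 3.45 downstream, with another of 3.47 further in.

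Other runs of 3 members lay at transcription factor genes and at genes of other kinds, whose shares were not counted. Sox12, of the SoxC group, had 3 peaks: the strongest, 6.94-fold with a pileup of 123, had its summit 863 bp before the start, the middle peak of 5.13 covered the start, and one of 3.90 lay inside the gene. Foxc1, a forkhead factor, had 5.97-fold just before its start, then 3.38 and 3.27 inside. Dusp7, a phosphatase that inactivates ERK kinases, had 7.17 over its start between 4.50 upstream and 2.85 downstream. At Foxn2, another forkhead gene, the folds were 6.58, 4.47 and 4.19. The run within 1 kb of ends of both Lsr, a lipoprotein receptor also found at cell corners in epithelia, and Usf2, which binds E-boxes, gave 5.17, 4.40 and 2.95. At all of these genes the median fold of the list, 5.80, was reached by at most 1 peak of the run.

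**Figure D4:**
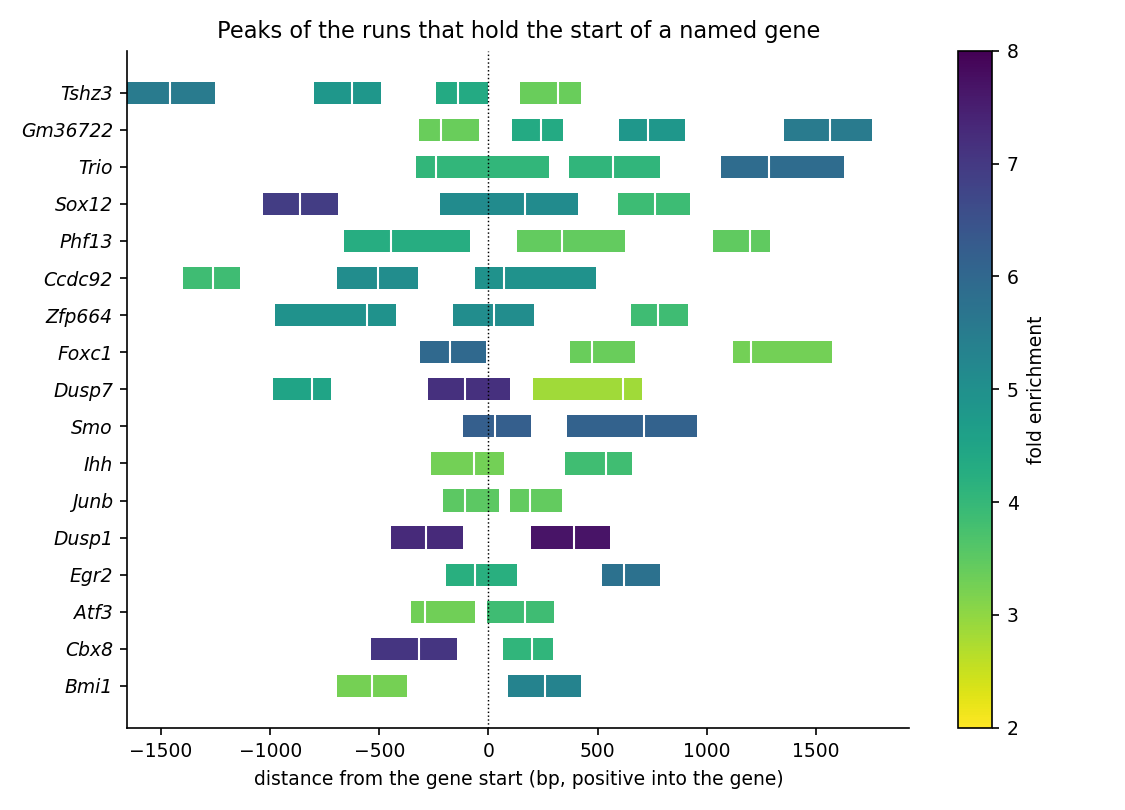
Peaks of runs that hold the start of a gene from the first 12 named runs or from the gene lists. Positions are drawn to scale by distance from the gene start (bp, positive into the gene). Each bar is a peak, the white line its summit and the colour its fold enrichment. Runs named only for their fold or gap are not drawn. Ccdc92 and Zfp664 show the same run seen from opposite starts, as do Tshz3 and Gm36722; in Tshz3, Gm36722, Phf13, Foxc1, Dusp1, Cbx8 and Bmi1 the start falls in a gap.

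The 10 runs with the highest peaks joined a strong peak to a weak neighbour. They were chosen by their strongest peak, so a weaker neighbour is built into the choice. Tmem267, a membrane protein gene, had 16.5-fold (chromosome 13, 119488187 to 119488644, pileup 207) over a gene start and 4.13-fold 101 bp further on (pileup 50). Acap2, an Arf GTPase-activating protein gene, had 14.7 over its start and 3.27 downstream. Ctdspl2, which encodes a phosphatase-like protein, had 13.8 and 3.43, Fam20b, a xylose kinase of proteoglycan synthesis, 13.6 and 3.98, and Macrod2, an ADP-ribose hydrolase, 13.6 and 4.07. Mapk8, which encodes the stress kinase JNK1, had 13.3 over its start and 3.31 with the summit 456 bp into the gene. Ostf1 (12.6 and 4.00) and Lsm14a, a processing body protein gene (12.5 and 4.11), had the same form. Starts of Nmrk1 and Mageb3, on the other strand, lay in the strong peaks of Ostf1 and Ctdspl2. For Nmrk1 and Mageb3 the weak peak therefore lay upstream. Further exceptions among these 10 runs were Pgbd5, a gene derived from a transposase, and Septin7, a cytoskeletal GTPase gene. At Pgbd5 the 12.8-fold peak lay upstream and the 2.94-fold peak held the start. At Septin7 a start lay in the gap between 12.4 and 3.39. The largest contrast in the whole set was at Rap2a, a small GTPase gene, with 2.43 upstream and 11.5 over the start (chromosome 14, 120478058 to 120478753).

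Some runs were parted by very little. The 5 smallest gaps were all 50 bp. They lay at Kcnk12, a potassium channel gene (folds 5.12 and 4.87), Pxdc1 (3.32 and 6.88), Map9, a microtubule-associated protein gene (3.71 and 5.77), Junb, an AP-1 subunit (3.45 and 3.51), and near ends of both Ppp1ca, a catalytic subunit of protein phosphatase 1, and Tbc1d10c (3.77 and 6.49). The 5 runs with the largest gaps, 493 to 498 bp, lay at Foxn2, at Nfic, a nuclear factor I gene (5.00 and 4.31), at Cux1, a homeobox gene (4.83 and 6.97), at Tlk2, a chromatin assembly kinase gene (8.80 and 3.88 with a start in the gap), and inside Rarg, a retinoic acid receptor gene (3.97 and 5.32). Strong and weak folds occurred at both extremes.

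Starts on both strands lay inside 62 runs, which is 11.2% of the 552 runs with a start. The share was 6.16% (333 of 5409) among single peaks and 7.45% (26 of 349) among peaks of 900 bp or more. Runs were also longer (median 980 bp) than single peaks (429 bp), and these shares were not tested. In 51 of the 62 the genes pointed away from each other, with a median of 206 bp between the starts (interquartile range 112 to 401). Both starts fell in the same peak in 18 of these runs, in different peaks in 13, and at least 1 fell in a gap in 17. The shared run of Ccdc92 and the zinc finger gene Zfp664 put each start in its own peak, 4.94-fold and 5.07-fold, 484 bp apart, with a peak of 3.85 beyond. Gart, a purine synthesis enzyme gene, and Son, a splicing cofactor gene, were picked once their values were known. The 12.4-fold peak covered the Gart start and the 3.32-fold peak the Son start, 852 bp apart. Zbtb25 and Zbtb1, zinc finger genes also picked in that way, had their nearest starts 960 bp apart, in peaks of 6.82 and 3.67 respectively.

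By the centres of their peaks, 10 runs lay wholly between genes. On chromosome 3 (8245244 to 8246572), 263619 bp from an end of Stmn2, the closest protein-coding gene, folds were 4.89, 4.79 and 9.89 in 3 peaks. On chromosome 14 a run 50786 bp from Gpc5 had 7.52, 3.18 and 3.48, and on chromosome 1 a pair 110034 bp from Ogfrl1 had 10.3 and 3.81. These distances are to ends of protein-coding genes only, and non-coding genes can lie closer. The strongest peak of these 10 runs was on chromosome 18 (3005264 to 3006044), at 12.03-fold beside 3.21. Its run began at 3004840, just past the 3 Mb below which gene starts were left out. The peak had a pileup of 187 and a background of 14.6, and read mapping there was not checked. A run of 3 peaks on chromosome 11, whose edge was within 1 kb of Elobl, was weak throughout (3.25, 3.23 and 2.58), with backgrounds of 14.7 to 15.7.

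Lists of genes with a shared role were set beside the genome as a whole. At the ends of 9576 protein-coding genes lay some peak, and for 809 of these (8.45%) a member was among them. The lists were chosen with earlier results of these data known, so the counts below are descriptions without a test. Of 30 progesterone and receptivity genes, 23 had a gene-end peak and 5 of them a member: Ihh, Hand2, Bmp2, Ncoa2 and Smo. Ihh, the hedgehog ligand made by uterine epithelium under progesterone, had weak peaks of 3.28 over its start and 3.85 inside (pileups 32 and 38). Smo, the membrane protein that transmits hedgehog signals, had 6.21 over its start and 6.13 inside the gene (pileups 68 and 66). Both genes thus had 2 peaks of nearly equal strength, at levels that differed. Hand2, a stromal factor that restrains growth signals to the epithelium, had 4.29 and 3.86 with a gap of 313 bp. Bmp2, a signal needed for decidualization, had 7.22 and 4.21 (chromosome 2, 133551998 to 133553018), and Ncoa2, a coactivator of steroid receptors, had 5.12 and 4.00.

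Immediate early genes, which are switched on within minutes of a stimulus, had the largest number of members of any list. Of 24 genes, 15 had a gene-end peak and 7 of those a member: Fosl2, Junb, Jund, Egr1, Egr2, Atf3 and Dusp1. Dusp1, a phosphatase that switches off MAP kinases, had its start in a gap of 311 bp between peaks of 7.29 upstream and 7.68 downstream (pileups 95 and 100), the strongest pair of the list. Egr1, a zinc finger factor, had 3 peaks of 4.39, 5.69 and 4.81, and Egr2 had 4.21 over its start and 5.77 inside. Jund had 6.05 and 3.30, with backgrounds of 18.2 and 18.1, near the limit of 21. Junb (3.51 and 3.45) and Atf3 (3.29 and 3.86) were weaker, and Junb had a background of 14.1. At Fosl2 the member was a weak peak of 2.66 next to a peak of 900 bp or more.

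Among 30 Polycomb and related chromatin genes, 26 had a peak at a gene end and 5 had a member there: Bmi1, Cbx8, Rybp, Yaf2 and Asxl1. Bmi1, a Polycomb ring finger gene, had its start in a gap of 462 bp, with 3.26 upstream and 5.32 downstream. An end of Commd3 was also within 1 kb of that run. Cbx8, a chromodomain gene, also had its start in a gap (7.06 upstream, 4.07 downstream). Yaf2 had the strongest peak of the list, 11.002-fold beside 3.34, while Rybp had 3.81 and 5.07 and Asxl1 6.46 and 3.00. Ubiquitous expression defined a further list of 20 genes. Peaks lay at the ends of 15 of them, and 3 of those 15 (20%) had a member. This share was close to that of the progesterone and receptivity list (21.7%) and of the Polycomb list (19.2%). It was 46.7% for immediate early genes and 7.69% for Hox genes. The 3 included Hsp90ab1, a chaperone gene (4.94 and 6.31), and Eef1a1, a translation elongation factor gene (3.83 and 4.28). Hox genes had 13 of 39 with a gene-end peak and 1 with a member, Hoxd8 (5.47 and 4.20). Of 24 genes of other organs, 3 had a gene-end peak and 0 had a member.

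Within 1 kb of their annotated ends, 4 protein-coding genes had 2 runs each: Kcnk12, Zfp36l2, Zfpm1 and Zswim6. Runs further inside a gene were not counted here. At Zfp36l2, which encodes a protein that destabilises AU-rich mRNAs, a pair of 6.26 and 4.22 near the gene's end was followed by a weaker pair of up to 2.90 inside the gene. At Zswim6 the 2 runs reached 4.58 and 3.18. At Zfpm1, a cofactor of Gata factors, they reached 7.95 and 4.61.

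Promoter letters were then set beside the position of the start. Windows whose start lay in a member peak had a median G and C content of 68.3% (interquartile range 64.1 to 74.0) and a median of 29.5 CG pairs (550 starts). Windows whose start lay in the gap of a run had 72.3% (66.3 to 78.5) and 34 CG pairs (128 starts). Starts in a single peak had 65.0% and 26 CG pairs (6233 starts), those in a long or high-background peak 71.7% and 34 (423), those with no peak 51.3% and 6 (13711), and all starts together 56.7% and 13. The quartile ranges of starts in gaps, in member peaks and in long peaks overlapped widely. They reached higher than the range of single peaks, and the range for starts with no peak lay below all of them.

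Short motifs were searched on both strands of the same windows, and a match is a description of letters only. GGGCGG, the GC box, was in 84.5% of windows with the start in a member peak, 87.5% with the start in a gap, 77.9% with the start in a single peak and 46.7% of all windows. The windows were not matched for their G and C content. CCGGAA, the core bound by ETS factors, stood at 25.1%, 20.3% and 32.9% in the same order, against 18.9% of all windows, and CCAAT at 34.0%, 28.1% and 37.2%, against 38.5%. TATAAA was rare in all 3 (3.27%, 0.781% and 4.20%, against 12.7% of all), as was the AP-1 sequence TGANTCA (2.00%, 0.781% and 3.40%, against 7.04%). The E-box CACGTG stood at 10.2%, 15.6% and 11.2% (7.91% of all), the cAMP response element TGACGTCA at 2.91%, 4.69% and 4.01% (2.26%), and the NRF1 palindrome at 1.64%, 0% and 2.74% (1.34%). The Dusp1 window printed above held TGACGTCA and CACGTG in its peak part and 3 GC boxes over its whole length, and the Bmi1 window held 6 GC boxes and a CACGTG in the gap.

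Letters of gap and peak could be compared inside 90 windows, 1 a run, that held a whole gap. Pooled over these windows, G and C made up 71.7% of 11.2 kb of gap and 72.1% of 15.8 kb of peak. The gap had more G and C than the peak bases beside it in 46 windows and less in 43. Gap values spread more widely (40.7% to 94.1%) than peak values (51.4% to 85.0%), and gaps were shorter. CG pairs numbered 10.7 per 100 bases of gap and 12.2 per 100 bases of peak. A stretch of at least 12 bases made of a repeated unit of up to 3 bases lay in the gap in 17 windows (18.9%, 95% Wilson interval 12.1 to 28.2) and in the peak bases in 14 (15.6%, 9.50 to 24.4). Windows with a whole gap are limited to gaps shorter than 300 bases that lie near a start, so the longer gaps are not described by these values.

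**Figure D5:**
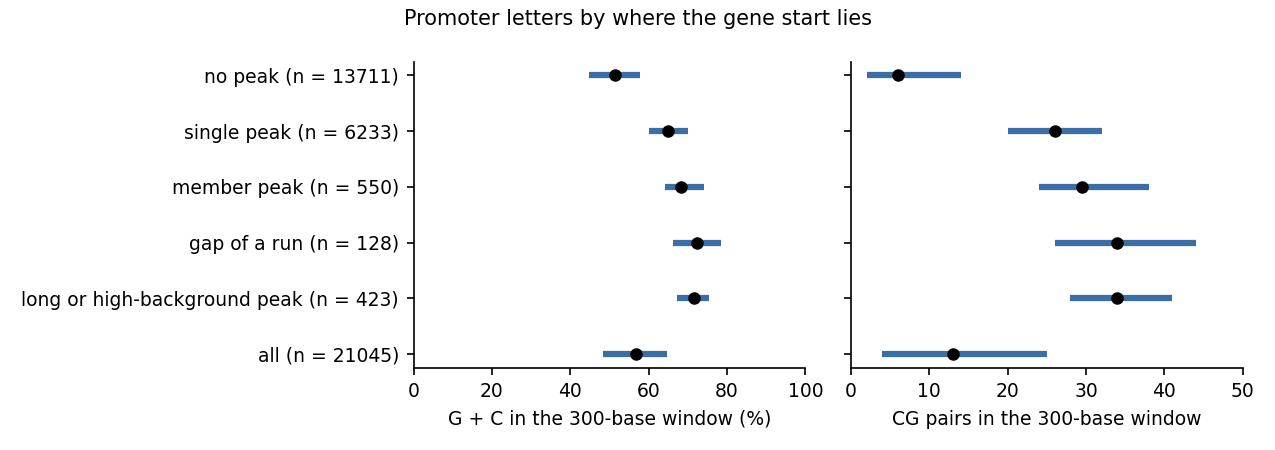
G and C content (left) and number of CG pairs (right) of 300-base promoter windows by where the gene start lies; points are medians, lines run from the lower to the upper quartile, and n counts starts. Starts in the gap of a run (median 72.3%, 34 CG pairs) lie close to those in long or high-background peaks and above those in single peaks.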

How the data were processed

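FAIRE DNA from 3 uteri was sequenced, and 1 peak list was analysed. Bowtie2, MACS2, HOMER and FastQC and the build GRCm38.p5 are listed per the submitters' processing notes, without versions or roles. The series' design text speaks of RNA from 4 mice, whereas these samples are labelled as DNA from 3. For the call threshold, a control and whether libraries were pooled, the entry is: not given in the sources used here. The columns are, per the file headers, the pileup (the deposited coverage signal at the summit), the fold enrichment (a deposited ratio, taken as relative to local background) and the −log10 q-value the authors deposited; the −log10 p-value was not used. Positions and lengths are in bases; 6 unnamed columns were empty. Depth is unknown.

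Peaks were chained where the gap (next start minus previous end minus 1) was 500 bp or less, whatever their length or background. Members are the chained peaks below 900 bp with a background of 21 or less. Genes came from RefSeq for GRCm38.p6, used for names and neighbourhood; genes starting below 3 Mb were left out, since such coordinates were taken to be those of unplaced scaffolds. Peak centres were assigned to gene ends within 1 kb, gene interiors or the space between genes, with protein-coding gene ends taking precedence. Promoter windows, strands and letters came from the RefSeq promoter table of GRCm38.p6. Intervals are Wilson intervals at 95% and cover counting error over peaks only. They treat the counted items as independent, which peaks of the same run are not. The run finder was tested on simulated data. Python 3.11.15, pandas 2.3.3, numpy 2.4.6, scipy 1.17.1 and matplotlib 3.10.9 were used.

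The members and gene lists were chosen with earlier results of these data known. Named runs were the 12 with the most members and then the largest length, the 10 with the highest fold, the 5 each with the smallest gap, the largest gap, the widest difference in fold and the most members between genes, and up to 6 at genes of each list. The rule for printed promoters gave 10 genes; 7 of them are printed, and 4 others were picked after their values were seen. A result for 1 gene of the lists is not reported here. No test was made because peaks of 1 list are not replicates.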

Additional observations from a re-analysis of the deposited data

How the results depend on the processing

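Of 62 values from 11 alternatives for 7 results, 39 stayed within 1.5 times (counts) or within the 95% interval (shares and medians). Among the 6207 peaks with the highest −log10 q there were 177 members in 90 runs, and among the 6207 with the highest fold 90 members in 45 runs, with 0 runs of 3 or more peaks in either, since neighbours that are weaker drop out. Median fold was then 6.38 and 6.69, median gap 156.5 and 143 bp, the share of members at protein-coding gene ends 81.4% and 84.4%, and the share of runs with ends of 2 or more such genes 11.1% and 17.8%. With a gap of 250 bp or less the median gap was 137.5 bp, 21 runs had 3 or more peaks and 78.0% of members were at gene ends; with 1000 bp or less these were 196 bp, 73 runs and 72.8%. The share at gene ends was 52.3% with windows of 500 bp, 85.9% with 2 kb and 90.6% with 5 kb, and the share of runs with 2 or more genes 20.8% with 5 kb. Neither dropping the length or the background limit, nor a background limit of 15, nor taking neighbours only from peaks within the limits moved any of the 7 results. No uterus could be left out, because the table names no sample. No paired analysis was possible because there is 1 group. Whether gaps would close at greater depth was not tested.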
